A study of Mus musculus with 8 samples.

Results

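Matrix metalloproteases (Mmp genes), their secreted relatives with thrombospondin motifs (Adamts genes) and the tissue inhibitors of metalloproteases (Timp genes) were taken from a gene expression table of mouse gastric tissue by symbol. The selection held 46 of 23361 genes, namely 23 Mmp, 19 Adamts and 4 Timp genes, and no measured value entered it. The libraries came from 5 carcinomas of the gastric squamous-columnar junction (SCJ), the border between the squamous forestomach and the glandular stomach, and from 3 samples of normal SCJ tissue. The cancers, labelled Trp53-/-Rb1-/-, arose in mice with floxed Trp53 and Rb1, an Ai9 tdTomato reporter and a tamoxifen-activated CreERT2 knocked in at Lgr5, and were dissected a long time after induction along the border of tdTomato signal. Only Lgr5+ cells and their descendants lose both tumor suppressors in this model, so stroma, vessels and immune cells within a dissected cancer keep them. The control SCJ tissue came from age-paired wild type mice, for which the sources used here give neither the Cre and reporter alleles nor a tamoxifen treatment. Poly(A)+ RNA of whole minced tissue was sequenced from directional libraries. Values are FPKM, fragments per kilobase of transcript scaled to sequencing depth, rounded to whole numbers.

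MMPs and ADAMTS proteases are zinc-dependent enzymes that are made as latent precursors and cleave collagens, proteoglycans and other proteins outside the cell. TIMPs bind the active site of the mature enzyme and block it. Epithelium, fibroblasts, macrophages and neutrophils each contribute different members in normal and cancerous gut, so a tissue lysate reports their sum. In such bulk samples, fewer cells of a type and less RNA per cell cannot be told apart.

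The sum of FPKM over all genes was 403569 to 573858 in the cancers and 887141 to 992550 in the controls. Trp53 was at 12 to 30 FPKM in the cancers and 16 to 19 in the controls, and Rb1 was at 4 to 6 against 9 to 10. The log2 fold change of Rb1 was -0.90 (adjusted p = 0.0059, limma) in FPKM and -0.91 (adjusted p = 0.014) after quantile normalization. It was -0.05 (adjusted p = 0.84) after each library was scaled to the same total, so the lower Rb1 level depends on which scaling is used. All 7 neuroendocrine marker genes were higher in the cancers, with a summed level of 7924 to 17774 FPKM against 125 to 188. The summed level of 8 gastric gland genes was 520 to 52913 FPKM in the cancers and 106563 to 169520 in the controls, and that of 7 squamous genes was 0 to 1609 against 1541 to 2585. Cancer 1 had the lowest gland sum and a squamous sum of 0. The controls thus held both epithelia of the junction, although the gland gene Pgc was at 28832 FPKM in control 1 and listed at 0 in controls 2 and 3. Hepatocyte genes summed to 492 FPKM in cancer 5 against 19 to 73 in the other cancers. The study's methods describe the controls as separate stomachs, but the sources used here do not say whether each cancer came from its own mouse, so the p-values measure the spread between these samples, which may in part be technical.

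Of the 46 genes, 11 were listed at 0 in all 8 libraries and 5 were above 0 in a single library. The first set was Mmp1a, Mmp1b, Mmp16, Mmp20, Mmp21, Mmp25, Mmp27, Adamts3, Adamts14, Adamts17 and Adamts20. The second was Mmp8 and Adamts6, each at 2 FPKM in cancer 5, Adamts13 at 1 in cancer 1, Adamts16 at 1 in cancer 3 and Adamts19 at 1 in cancer 2. The other 30 reached 1 FPKM in at least 3 libraries and were tested, and 11 of these were listed at 0 in every control, so that they could pass the filter only through the cancers.

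Of the members, 10 rose in the cancers and 4 fell. The 10 that rose were Mmp3, Mmp9, Mmp12, Mmp14, Mmp24, Adamts1, Adamts4, Adamts9, Adamts18 and Timp1, and the 4 that fell were Mmp15, Mmp28, Adamts15 and Timp4. These 14 of 30 compare with 34.5% of all 14357 genes tested, of which 16.2% were higher and 18.3% lower, by limma on log2(FPKM + 1) with a Benjamini-Hochberg adjusted p under 0.05. Of the 10 that rose, 7 were listed at 0 in every control and could not have been called lower, and among the 19 members above 0 in both groups 3 rose and 4 fell. The median log2 fold change was 0.80 over the 30 members and -0.04 over all genes tested. Among the 19 members above 0 in both groups it was 0.67, against -0.11 over the 13215 such genes. In 8 members every cancer was above every control and in 3 every cancer was below, while the groups did not overlap in 34.1% of all genes tested (14.4% higher and 19.8% lower). Of the 8, Mmp3, Mmp12, Mmp24, Adamts4, Adamts9 and Adamts18 were listed at 0 in every control, so their cancers could not lie below. The others were Mmp14 and Timp1. Of the 14 calls, 6 were of genes that never reached 5 FPKM, where rounding leaves only a few possible values. Rescaling each library to the same total (as TPM does) moved the median log2 change over all genes tested from -0.04 to 0.81. On that scale 23 members were higher and 1, Adamts15, was lower, against 50% and 3.68% of all genes tested. No tested member changed sign between the FPKM and TPM scales.

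**Figure D1:**
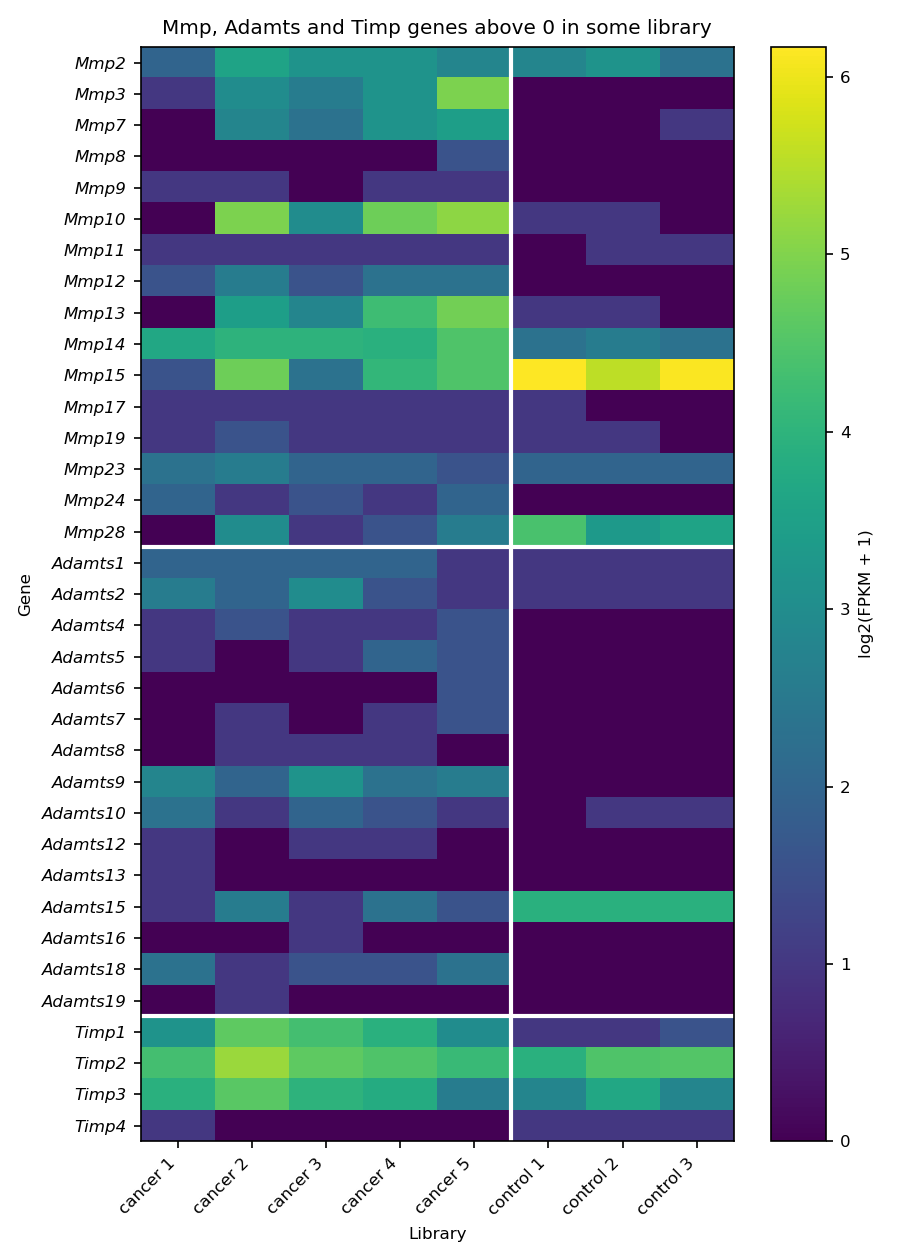
Levels of the Mmp, Adamts and Timp genes in every library, without the 11 listed at 0 throughout. Each row of colour is a gene and each column a library, 5 cancers and then 3 controls, and the colour gives log2(FPKM + 1). Mmp15 is the brightest Mmp gene in the 3 controls and Timp2 is bright in all 8 libraries.

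**Figure D2:**
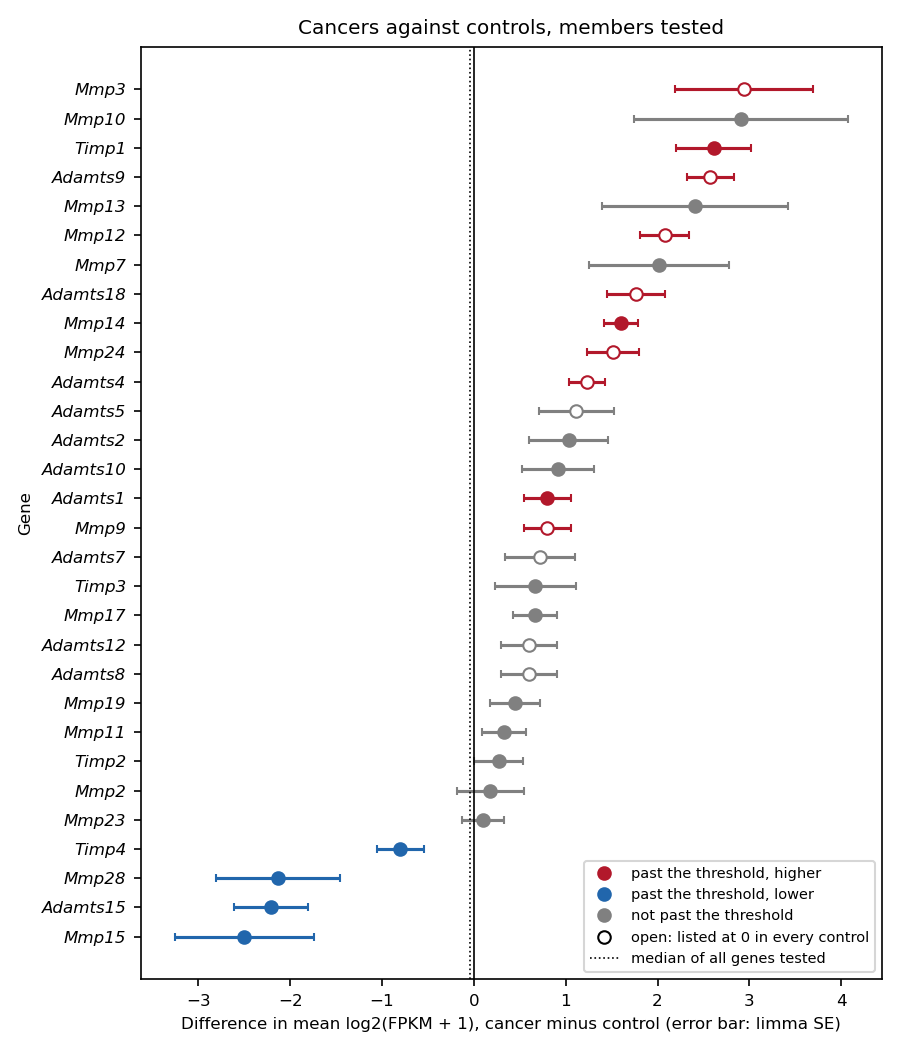
Difference between cancers and controls for the 30 members tested. The horizontal axis is the difference in mean log2(FPKM + 1), cancer minus control, with standard errors from limma, in red for the 10 genes that rose, blue for the 4 that fell and grey for the rest, beside a dotted line at the median of all genes tested. Open symbols mark genes listed at 0 in every control, whose difference depends on the pseudocount.

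Stromelysin-1 and stromelysin-2, collagenases, matrilysin and the macrophage elastase are encoded side by side on chromosome 9. There, 10 Mmp genes follow each other over 427 kb, from the start of Mmp13 at 7272514 to the end of Mmp7 at 7699585 (GENCODE M21 on GRCm38, the same assembly as mm10). Of these, 6 genes, Mmp13, Mmp12, Mmp3, Mmp10, Mmp8 and Mmp7, were above 0 in some library, and Mmp1b, Mmp1a, Mmp27 and Mmp20 in none. Summed over the cluster, FPKM was 3, 58, 24, 65 and 108 in cancers 1 to 5 and 2, 2 and 1 in the controls. Cancers 2 to 5 were far above the controls and cancer 1 was not.

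Promoter sequence of the cluster is shown because most of its genes share a short element that the selection by symbol did not use. Promoter windows from RefSeq on GRCm38.p6, 250 bases before to 50 bases after each annotated start, were found for 32 of the 46 members. They were searched on both strands for TGAGTCA, the site bound by AP-1 (dimers of FOS and JUN proteins), and for TATAAA, the core sequence of TATA boxes. TGAGTCA was in the promoters of 7 members, all of them among the 10 cluster genes, in 0 of the other 22 members with a window, and in 5.2% of all 32851 promoters. TATAAA was in 9 of the 10 cluster genes and in 2 other members, Mmp21 and Adamts1, against 13.6% of all promoters. Its place varied. It began 29 bases before the start in Mmp10, 28 in Mmp1a and 7 in Mmp3, and 4 bases after it in Mmp12. In Mmp8 it lay on the opposite strand. Whether these matches act as TATA boxes was not tested. All 7 genes with TGAGTCA also held TATAAA, against 0.941% of all promoters, and the matches of these motifs did not overlap. The whole promoters of the cluster genes that passed the test, Mmp3 (chr9:7445572-7445871, + strand) and Mmp12 (chr9:7347124-7347423, + strand), are given 5′ to 3′ with TGAGTCA and TATAAA in capitals. For Mmp12, RefSeq also gives a start further upstream, whose window holds neither of these motifs.
Mmp3: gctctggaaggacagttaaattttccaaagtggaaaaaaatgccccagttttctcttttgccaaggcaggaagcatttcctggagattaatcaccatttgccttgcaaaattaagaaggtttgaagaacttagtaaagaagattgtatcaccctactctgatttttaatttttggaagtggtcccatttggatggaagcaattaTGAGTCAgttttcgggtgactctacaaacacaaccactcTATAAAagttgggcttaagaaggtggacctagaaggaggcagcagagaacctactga
Mmp12: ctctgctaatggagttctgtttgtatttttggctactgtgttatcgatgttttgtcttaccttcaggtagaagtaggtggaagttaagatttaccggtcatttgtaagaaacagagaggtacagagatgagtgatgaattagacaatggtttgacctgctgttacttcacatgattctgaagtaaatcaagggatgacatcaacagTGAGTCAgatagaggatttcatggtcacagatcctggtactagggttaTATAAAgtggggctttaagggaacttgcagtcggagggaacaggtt

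The element begins 46 bases before the start in Mmp3 and 44 bases before it in Mmp12. Windows of 47 bases around it are given for the other 5 genes, which were chosen after their values were seen, with only the element in capitals. In Mmp13 (chr9:7272459-7272505) it begins 35 bases before the start and lies on the opposite strand, so that it reads TGACTCA. In Mmp10 (chr9:7502259-7502305) and Mmp7 (chr9:7692007-7692053) it begins 63 bases before the start, in Mmp1a (chr9:7464048-7464094) 73 bases and in Mmp1b (chr9:7388093-7388139, a gene on the - strand) 93 bases. Mmp1a and Mmp1b hold the element and were listed at 0 in all 8 libraries.
Mmp13: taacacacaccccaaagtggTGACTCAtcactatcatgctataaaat
Mmp10: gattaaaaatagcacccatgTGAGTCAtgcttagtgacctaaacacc
Mmp7: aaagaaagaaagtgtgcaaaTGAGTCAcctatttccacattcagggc
Mmp1a: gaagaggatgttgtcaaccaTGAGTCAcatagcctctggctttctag
Mmp1b: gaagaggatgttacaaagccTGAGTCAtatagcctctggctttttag

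Mmp3, stromelysin-1, which digests proteoglycans and fibronectin and activates other latent MMPs, was at 1, 7, 5, 8 and 30 FPKM in cancers 1 to 5 and listed at 0 in the 3 controls. Every cancer was above every control, with cancer 1 a single step above them and cancer 5 highest. The mean was 10.2 ± 11.4 FPKM in the cancers (SD, n = 5; adjusted p = 0.021, limma). The adjusted p was 0.069 to 0.073 when control 1, 2 or 3 was left out, 0.064 with a pseudocount of 5, and 0.018 without cancer 5, the library with the hepatocyte transcripts. Mmp12, the macrophage elastase, was at 2, 5, 2, 4 and 4 FPKM in the cancers and listed at 0 in the controls. All cancers were above all controls, at a mean of 3.4 ± 1.34 FPKM (SD, n = 5; adjusted p = 0.0022, limma). The summed level of 6 macrophage marker genes, 2 of which (Csf1r and Itgam) rose, was 289, 112, 126, 45 and 88 FPKM in cancers 1 to 5 and 48, 34 and 22 in the controls. Cancer 1 thus had the highest macrophage sum and, with cancer 3, the lowest Mmp12. Of that sum of 289 FPKM, 252 came from Lyz2 alone, which did not pass the test. The part of macrophages in the Mmp12 level was not tested.

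A further 3 cluster genes reached higher levels than Mmp12 and did not pass the test. Mmp10, stromelysin-2, was at 0, 30, 7, 27 and 34 FPKM in the cancers against 1, 1 and 0 in the controls. Mmp13, the main interstitial collagenase of mice, was at 0, 10, 6, 18 and 28 FPKM against 1, 1 and 0. Mmp7, matrilysin, which is made by epithelium and lacks the hemopexin domain of most MMPs, was at 0, 6, 4, 8 and 10 FPKM against 0, 0 and 1. For each of these genes cancers 2 to 5 were above all controls and cancer 1 was listed at 0. The log2 fold changes were 2.91 (SE 1.17, adjusted p = 0.086) for Mmp10, 2.41 (SE 1.02, adjusted p = 0.099) for Mmp13 and 2.02 (SE 0.76, adjusted p = 0.073) for Mmp7, all by limma on log2(FPKM + 1), which understates changes from low levels. Without cancer 1 they were 3.81, 3.18 and 2.61, with adjusted p = 0.0072, 0.0090 and 0.0062. With any other library left out none of these genes passed. Their adjusted p was then 0.13 to 0.22 for Mmp10, 0.15 to 0.26 for Mmp13 and 0.11 to 0.19 for Mmp7. All 3 genes passed with array weights and on the TPM scale, where 50% of all genes tested were higher, and none after quantile normalization. Squamous marker genes summed to 0, 25, 308, 1609 and 486 FPKM in cancers 1 to 5, and cancer 2 combined 30 FPKM of Mmp10 with a squamous sum of 25. Cancer 1 was also the lowest cancer in the sums of gastric gland (520 FPKM), smooth muscle (43) and neutrophil genes (13). It was the highest in those of macrophage (289) and endothelial genes (62). The part of any of these cell types in the levels of Mmp10, Mmp13 and Mmp7 was not tested.

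Mmp10 and Mmp3 share sequence, with 140 of their 50-base words in common, 8.37% of those of Mmp10 and 7.99% of those of Mmp3, so a small part of their fragments could be assigned to either. Mmp8, the neutrophil collagenase, was above 0 only in cancer 5. Neutrophil marker genes did not separate the groups, at 13 to 962 FPKM in the cancers and 170 to 394 in the controls, and Mpo, Elane and Camp were listed at 0 in every library. On either side of the cluster, Dcun1d5 was at 33, 34, 36, 44 and 26 FPKM in the cancers against 49, 33 and 37, and Tmem123 was at 38, 25, 28, 39 and 37 against 54, 53 and 42. Dcun1d5 did not pass the test in FPKM (log2 fold change -0.19, adjusted p = 0.46, limma), and on the TPM scale it was higher (0.77, adjusted p = 0.013). Every cancer lay below the lowest control in Tmem123, at a log2 fold change of -0.57 (adjusted p = 0.0497, limma) in FPKM and 0.39 (adjusted p = 0.23) on the TPM scale.

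**Figure D3:**
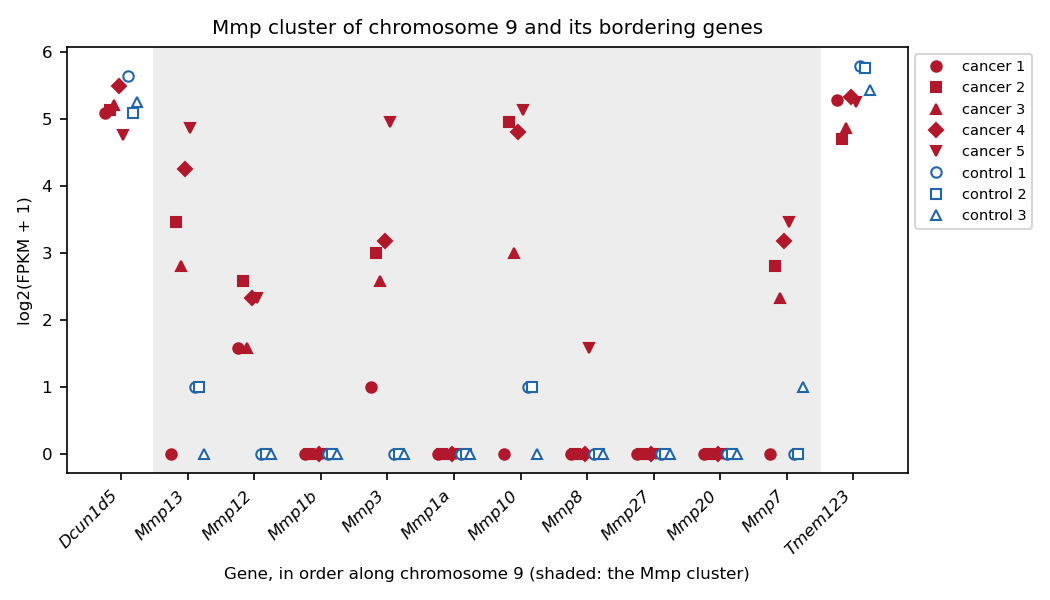
Levels across the Mmp cluster of chromosome 9 and its bordering genes. Genes stand in chromosomal order along the horizontal axis, without distances, the vertical axis is log2(FPKM + 1), and each symbol is a library. Cancer 1 lies at 0 for Mmp13, Mmp10 and Mmp7, where the other cancers lie above the controls, and every cancer lies below the controls in Tmem123.

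The membrane-type MMPs, which stay anchored at the cell surface, moved in opposite directions. Mmp14 (MT1-MMP, chr14:54431612-54445364), a collagenase that also activates pro-MMP2 together with TIMP2, was at 12, 15, 15, 14 and 21 FPKM in the cancers against 4, 5 and 4 in the controls. Every cancer was at least 7 FPKM above the highest control. The mean rose from 4.33 ± 0.577 (SD, n = 3) to 15.4 ± 3.36 FPKM (SD, n = 5), a log2 fold change of 1.60 (SE 0.18, adjusted p = 0.0015, limma), and the exact permutation test gave p = 0.018, the smallest it can give with 5 against 3 samples. Mmp15 (MT2-MMP, chr8:95352268-95375080) was at 2, 27, 4, 16 and 21 FPKM in the cancers against 71, 46 and 69 in the controls. All cancers were below all controls, and cancers 1 and 3 were lowest by a wide margin. The log2 fold change was -2.50 (SE 0.76, adjusted p = 0.039, limma), and the exact permutation test gave p = 0.054. The adjusted p was 0.085 to 0.12 without control 1, 2 or 3, 0.084 without cancer 3, 0.061 after quantile normalization with a log2 fold change of -2.27, and 0.073 on the TPM scale with a log2 fold change of -1.64.

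Mmp24 (MT5-MMP), known for its expression in the nervous system, was at 3, 1, 2, 1 and 3 FPKM in the cancers and listed at 0 in the controls (mean 2 ± 1 FPKM, SD, n = 5; adjusted p = 0.0073, limma). All 5 cancers were above all controls, by at most 3 rounding steps. Each of these cancers also had neuroendocrine marker genes at levels not seen in the controls, and the part of neuroendocrine cells in the Mmp24 level was not tested. BC029722, which overlaps Mmp24 on the other strand, was at 24 to 31 FPKM in the cancers and 24 to 36 in the controls. Mmp17 was at 1 FPKM in each cancer and at 1, 0 and 0 in the controls, and Mmp16 and Mmp25 were listed at 0 throughout.

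Of the gelatinases, which digest denatured collagen and basement membrane, Mmp9 passed the test and Mmp2 did not. Mmp2, a product mainly of fibroblasts, was at 3, 11, 8, 8 and 6 FPKM in the cancers against 6, 8 and 4 in the controls, with overlapping groups and a log2 fold change of 0.18 (SE 0.36, adjusted p = 0.72, limma). Mmp9 was at 1, 1, 0, 1 and 1 FPKM against 0 in each control (adjusted p = 0.045, limma). The Mmp9 call rests on a single rounding step and the groups overlap at 0. Its adjusted p was 0.072 to 0.081 without cancer 1, 2, 4 or 5, 0.11 to 0.12 without any control, 0.081 after quantile normalization, 0.064 with array weights and 0.051 without the filter on low values.

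Among the other MMPs, Mmp28 (epilysin, chr11:83440768-83463071), which is made by normal epithelia, was at 0, 7, 1, 2 and 5 FPKM in the cancers against 20, 9 and 11 in the controls. All cancers were below all controls, with cancer 2 within 2 FPKM of the lowest control. The log2 fold change was -2.13 (SE 0.67, adjusted p = 0.044, limma). The adjusted p was 0.053, 0.096 and 0.073 without cancer 1, 3 or 4, and 0.087 to 0.15 without any control. With a pseudocount of 0.1 the adjusted p was 0.11, and on the TPM scale the fold change was -1.59 with adjusted p = 0.12. The gene 1700020L24Rik, which overlaps Mmp28 on the other strand, was at 1, 14, 3, 7 and 5 FPKM in the cancers against 23, 12 and 12 in the controls. The libraries keep strand, but the strand setting of the counting is not given in the sources used here, so reads of these overlapping genes might have been mixed. Mmp23 (4, 5, 3, 3 and 2 FPKM against 3, 3 and 3), Mmp19 (1 to 2 against 0 to 1) and Mmp11 (1 in each cancer against 0 to 1), the stromelysin-3 gene, did not pass the test.

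Of the 11 ADAMTS genes tested, 4 rose and 1 fell, and 3 of those that rose were listed at 0 in every control. This share of 45.5% compares with 34.5% of all genes tested, of which 16.2% were higher and 18.3% lower. Adamts9 (chr6:92772699-92943492), which cleaves versican and aggrecan, was at 6, 3, 8, 4 and 5 FPKM in the cancers and listed at 0 in the controls. Every cancer was at least 3 FPKM above the controls, at a mean of 5.2 ± 1.92 (SD, n = 5; adjusted p = 0.0011, limma). Adamts18, a protease with few known substrates, was at 4, 1, 2, 2 and 4 FPKM against 0 in each control (mean 2.6 ± 1.34, SD, n = 5; adjusted p = 0.0062, limma). Adamts4, an aggrecanase, was at 1, 2, 1, 1 and 2 FPKM against 0 in each control (mean 1.4 ± 0.548, SD, n = 5; adjusted p = 0.0043, limma). For both, all cancers lay above all controls.

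Adamts15 (chr9:30899155-30922452), another proteoglycan-cleaving member, was at 1, 5, 1, 4 and 2 FPKM in the cancers and 14 in each control. Every cancer was at least 9 FPKM below the controls. The log2 fold change was -2.21 (SE 0.40, adjusted p = 0.0066, limma; exact permutation p = 0.018), and on the TPM scale it was -1.53 with adjusted p = 0.012. Adamts1 was at 3, 3, 3, 3 and 1 FPKM against 1 in each control, so that cancer 5 was level with the controls (log2 fold change 0.80, SE 0.26, adjusted p = 0.046, limma). Its adjusted p was 0.074 to 0.095 without cancer 1, 2, 3 or 4, 0.11 to 0.12 without any control and 0.051 without the filter on low values, and the fold change fell to 0.42 with adjusted p = 0.33 after quantile normalization.

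Adamts2, which removes the amino propeptide of fibrillar procollagens, was at 5, 3, 7, 2 and 1 FPKM in the cancers and 1 in each control. Cancer 5 was level with the controls and the others were above them, and the log2 fold change was 1.03 (SE 0.43, adjusted p = 0.094, limma). Without cancer 5 it was 1.29 with adjusted p = 0.032. Fibroblast marker genes summed to 66 FPKM in cancer 5 and to 233 to 337 in the other cancers, against 75 to 136 in the controls, and the part of fibroblasts in the Adamts2 level was not tested. The remaining tested ADAMTS genes, Adamts5, Adamts7, Adamts8, Adamts10 and Adamts12, did not pass the test, and their highest level was 4 FPKM, of Adamts10 in cancer 1. Adamts5, the main aggrecanase of mouse cartilage, was at 1, 0, 1, 3 and 2 FPKM against 0 in each control.

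Within the cancers, the 3 more abundant of the falling genes were lower where gland transcripts were fewer, with exceptions. Among the cancers, Mmp15, Mmp28 and Adamts15 were highest in cancer 2, whose gastric gland genes summed to 52913 FPKM, the most among the cancers. Tff1 (34501 FPKM) and Gkn1 (12040) made up most of that sum. Of the other gland genes, Atp4a, Atp4b and Pgc were higher in cancer 4 than in cancer 2, and Gif, Muc5ac and Muc6 were lower. The 3 proteases were lowest in cancer 1, where the gland genes summed to 520 FPKM, although Adamts15 was as low in cancer 3, at a gland sum of 4058. Cancer 5 was above cancer 4 in Mmp15 and Mmp28 although its gland sum was lower, at 11561 against 35053 FPKM. In the controls, at 106563 to 169520 FPKM of gland genes, all 3 proteases were above every cancer. The 3 genes were chosen because they fell, so that difference says nothing further about gland transcripts. Only Gkn1 among the 8 gland genes passed the test as lower. The part of gland epithelium in these 3 levels was not tested.

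**Figure D4:**
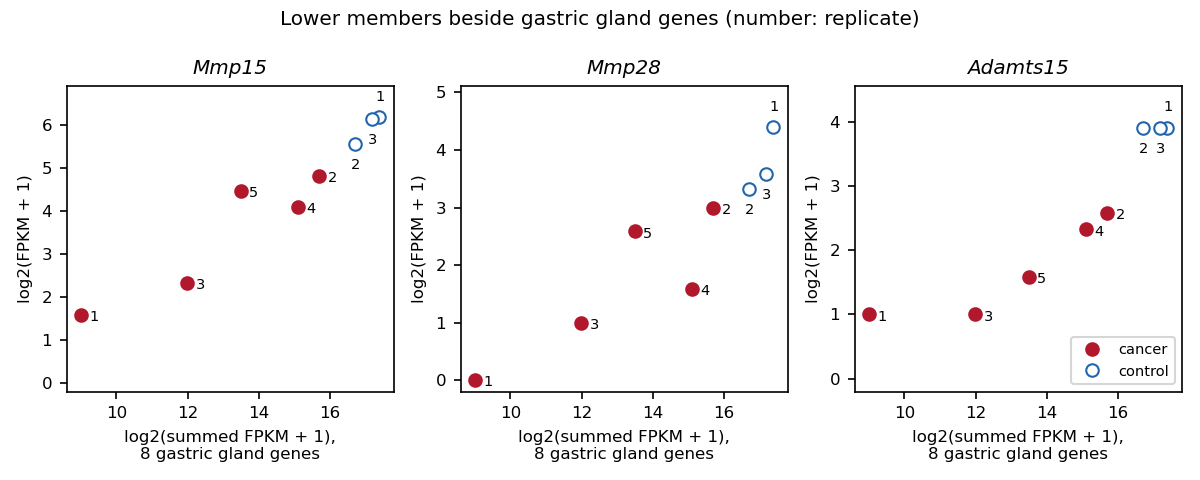
The 3 abundant falling proteases beside gastric gland transcripts. The horizontal axis is log2(summed FPKM + 1) of 8 gland genes, the vertical axis log2(FPKM + 1) of Mmp15, Mmp28 or Adamts15, and each symbol is a library with its replicate number, filled for cancers and open for controls. Cancer 1 is at the lower left of each panel and the 3 controls are at the upper right. The genes were chosen because they were lower in the cancers.

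Of the inhibitors, Timp1 rose and the most abundant, Timp2, did not pass the test. Timp1 (chrX:20870166-20874735), which is induced in injured and inflamed tissue, was at 8, 24, 19, 14 and 7 FPKM in the cancers against 1, 1 and 2 in the controls. All cancers were at least 5 FPKM above all controls. The mean was 14.4 ± 7.23 (SD, n = 5) against 1.33 ± 0.577 FPKM (SD, n = 3), a log2 fold change of 2.61 (SE 0.41, adjusted p = 0.0040, limma; exact permutation p = 0.018). Timp1 lies within Syn1, a gene of neuronal vesicles on the other strand, which was at 15, 7, 12, 6 and 12 FPKM in the cancers and listed at 0 in the controls (adjusted p = 0.00072, limma). Whether reads of Syn1 and Timp1 were mixed in the counting was not tested.

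Timp2 was at 19, 37, 24, 21 and 17 FPKM in the cancers against 14, 21 and 22 in the controls, with overlapping groups (log2 fold change 0.27, SE 0.27, adjusted p = 0.45, limma). Timp3, which is held in the matrix and also inhibits ADAMTS proteases, was at 14, 23, 15, 13 and 5 FPKM against 6, 12 and 6. Cancer 5 was the lowest of all 8 libraries in Timp3 and the other cancers were above all controls (log2 fold change 0.67, SE 0.44, adjusted p = 0.25, limma). On the TPM scale the changes of Timp2 and Timp3 were 1.22 and 1.59, both past the threshold, where the median gene was at 0.81. Timp4 was at 1 FPKM in cancer 1 and in each control and listed at 0 in the other cancers (log2 fold change -0.80, SE 0.26, adjusted p = 0.045, limma). That call is again a single rounding step. Its adjusted p was 0.072 to 0.092 without cancer 2, 3, 4 or 5, 0.11 to 0.12 without any control, 0.051 without the filter on low values and 0.23 on the TPM scale. Timp4 lies within Syn2 on the other strand, which rose from 1 FPKM in each control to 12, 6, 7, 4 and 9 in the cancers (adjusted p = 0.0032, limma).

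Shares within each family can be compared because FPKM is scaled to transcript length. The leading Mmp gene of the controls led in no cancer, while Timp2 led the Timp sum in all 8 libraries and Adamts15 still led the Adamts sum in cancer 2 and was level with Adamts9 at its top in cancer 4. Mmp15 made up 65.7, 61.3 and 74.2% of the summed Mmp FPKM in the controls and 6.45, 20.9, 6.67, 14.2 and 12.4% in cancers 1 to 5. Mmp14 led in cancers 1 and 3, at 38.7 and 25% of the sum, and Mmp10 led in cancers 2, 4 and 5, at 23.3, 23.9 and 20%. The chromosome 9 cluster as a whole accounted for 9.68, 45, 40, 57.5 and 63.5% in the cancers and for 1.85, 2.67 and 1.08% in the controls. No cancer overlapped the controls in any of these shares except that Mmp10 was at 0 in cancer 1.

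The summed Mmp level itself did not separate the groups, at 31, 129, 60, 113 and 170 FPKM in the cancers against 108, 75 and 93 in the controls. More Mmp genes were above 0 in each cancer, 11 to 16, than in any control, 7 to 9, and so were more genes of the whole table, 13521 to 14024 against 12830 to 13034. Adamts sums were 21 to 29 FPKM in the cancers and 16 to 17 in the controls, with 10 to 11 against 3 to 4 genes above 0. Adamts15 made up 82.4 to 87.5% of the Adamts sum in the controls and 3.45 to 23.8% in the cancers, where Adamts9 held 14.3 to 27.6%. Timp1 supplied 19.0 to 32.8% of the Timp sum in the cancers and 2.86 to 6.45% in the controls. The ratio of summed Timp to summed Mmp FPKM was 1.35, 0.651, 0.967, 0.425 and 0.171 in cancers 1 to 5 and 0.204, 0.467 and 0.333 in the controls. Cancer 1 had the highest ratio and cancer 5 the lowest, so the cancers spanned the control range on both sides.

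**Figure D5:**
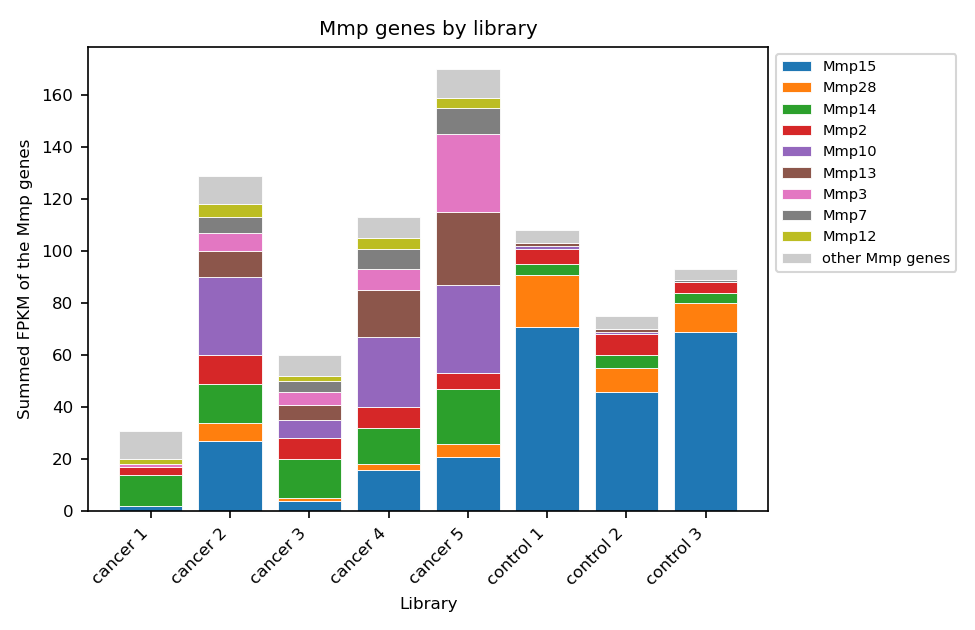
Makeup of the Mmp transcripts in each library. Bars start at 0 and give the summed FPKM of the Mmp genes, split by gene in colours, for 5 cancers and 3 controls. Mmp15 fills most of the bar in the controls (61.3 to 74.2%), and several genes share the bars of the cancers.

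Other genes of matrix proteolysis were taken from a list of 52, of which 40 were tested, 9 rose and 6 fell. This share of 37.5% lies near the 34.5% of all genes tested. On the TPM scale 21 rose and 1 fell, against 50% and 3.68% of all genes tested. After quantile normalization 8 rose and 3 fell, against 14.5% and 13.5%. Furin, the convertase that cuts the latent form of membrane-type MMPs and ADAMTS proteases, was at 19, 37, 21, 35 and 39 FPKM in the cancers against 238, 555 and 541 in the controls. All cancers were far below the lowest control, with a log2 fold change of -3.80 (SE 0.37, adjusted p = 0.0011, limma). Bmp1, the procollagen C-proteinase, was at 13, 10, 12, 8 and 7 FPKM against 1, 2 and 2 (log2 fold change 2.04, SE 0.24, adjusted p = 0.0017, limma).

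Of the 4 lysosomal cathepsins of the list, 3 rose and Ctsb did not pass the test. Ctsb was at 133 to 231 FPKM in the cancers against 254 to 478 in the controls, every cancer below every control (log2 fold change -0.76, adjusted p = 0.065, limma; 0.21 on the TPM scale). Ctsl was at 545, 204, 620, 345 and 1295 FPKM against 49, 72 and 44, with no overlap (log2 fold change 3.19, adjusted p = 0.0056). Ctss, which is abundant in macrophages, and Ctsk, a collagen-cleaving cathepsin, had log2 fold changes of 2.04 and 1.71 (adjusted p = 0.030 and 0.027). The Ctss call was lost without cancer 1 or 3 or control 2 or 3 (adjusted p = 0.055 to 0.11), and the Ctsk call without cancer 3 or any control (0.060 to 0.10). In the plasminogen system, which can activate latent MMPs, the inhibitors moved in both directions. Serpine2 was at 15, 18, 69, 65 and 33 FPKM against 2 in each control (log2 fold change 3.52, adjusted p = 0.0034). Serpinb2 was at 0, 0, 2, 5 and 3 FPKM against 12, 18 and 8 (-2.47, adjusted p = 0.025). Its adjusted p was 0.069 on the TPM scale, 0.079 with a pseudocount of 0.1, 0.056 to 0.094 without any control and 0.050 without cancer 3. The activators Plau and Plat and the receptor Plaur did not pass the test.

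Among 8 AP-1, ETS and RUNX factors, which bind promoters of Mmp genes, Etv4 rose and the other 7 did not pass the test. Etv4 was at 4, 7, 4, 5 and 7 FPKM against 1 in each control (log2 fold change 1.65, SE 0.21, adjusted p = 0.0021, limma). Fos was at 21, 33, 25, 24 and 71 FPKM in the cancers against 43, 37 and 34 in the controls, and Jun was at 10, 19, 11, 18 and 41 against 39, 33 and 38. For both, cancer 5 was the highest of all 8 libraries and cancer 1 the lowest, and no relation of these factors to the Mmp genes was tested. Adamtsl2, an ADAMTS-like matrix protein without protease activity, was at 1 FPKM in each cancer and 0 in each control (adjusted p = 0.0011), a difference of a single rounding step with no spread left within either group. Its relative Adamtsl5 was at 0, 2, 1, 2 and 1 FPKM against 4 in each control (-1.29, adjusted p = 0.028). On the TPM scale the change was -0.84 with adjusted p = 0.17, and the adjusted p was 0.12 with a pseudocount of 0.1, 0.084 to 0.087 without any control, and 0.063 and 0.053 without cancer 3 or 5. Vwf, the substrate of Adamts13 and an endothelial product, was at 2, 2, 1, 2 and 2 FPKM against 0, 1 and 0 (1.13, adjusted p = 0.018). Its adjusted p was 0.071 to 0.075 without control 1 or 3, 0.082 after quantile normalization, and 0.12 with array weights, at a fold change of 0.64. Endothelial marker genes summed to 17 to 62 FPKM in the cancers and 13 to 17 in the controls, and 3 of 6 rose.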

How the data were processed

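The authors trimmed reads with cutadapt 1.8, and TopHat2 2.0.13 is named in the submitters' processing notes. FPKM for mm10 genes came from Cuffnorm 2.2.1. The normalization option and the strand setting are not given in the sources used here. The deposited values are FPKM rounded to whole numbers, treated as a score in which depth is unknown, so no counting interval is given and 0 means a level that rounds to 0. The planned test assumed unrounded FPKM and was kept. limma 3.58.1 in R 4.3.3 (lmFit, eBayes with trend) was run on log2(FPKM + 1) for the 14357 genes that reached 1 FPKM in 3 or more of the 8 samples, without covariates, with Benjamini-Hochberg adjustment over all genes tested, and was tested on simulated data. Single genes also had a two-sided exact permutation test over 56 splits. Folds are on the log2(FPKM + 1) scale, and none is given for genes listed at 0 in every control. Values in every sample are given for members past the threshold or at 5 FPKM or more in some library, and of the other list for at most 12 genes past the threshold with the largest changes. Some results that fall under this rule are not reported here. Of the marker genes 61 of 62 matched. The members and lists were chosen with earlier results of these data known. Alternatives were pseudocounts of 0.1 and 5, no filter, a mean of at least 5 FPKM, TPM, quantile normalization, no trend, array weights, a replicate block and each library left out.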

Additional observations from a re-analysis of the deposited data

Results flagged for a closer look

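Of the 28 members examined, 4 had 1 cancer apart from the other cancers on the log2(FPKM + 1) scale by a gap larger than Dixon's critical value for 5 samples, where chance alone would give about 1.4. In each, the gap came to the whole range, a ratio of 1. Adamts1 was at 1 FPKM in cancer 5 and 3 in the others, Mmp9 at 0 in cancer 3 and 1 in the others, Timp4 at 1 in cancer 1 and 0 in the others, and Mmp19 at 2 in cancer 2 and 1 in the others. These gaps are of 1 or 2 rounding steps. In FPKM without the logarithm 5 members had such a gap, the same 4 and Mmp3, which was at 30 FPKM in cancer 5 and 1 to 8 in the others, a gap of 0.759 of its range.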

How the results depend on the processing

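Rounded FPKM resolves no difference below 1 FPKM, which limits the 6 called members that never reached 5 FPKM, and 3 controls limit every test. Mmp14, Timp1, Adamts9 and Adamts4 stayed past the threshold in the same direction under every alternative run for them. Adamts9 and Adamts4 were listed at 0 in every control and could not have been called lower. Neither of them was run under the filter of a mean of at least 5 FPKM.

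The 14 changed members became 6 (3 higher and 3 lower) of those with a mean of at least 5 FPKM, where 38.5% of all genes tested passed, 24 with TPM, 22 with array weights (18 higher and 4 lower), and 8 to 14 with 1 library left out, namely 9, 8 and 8 without control 1, 2 or 3. The stricter filter tested fewer members. The 15 changed genes of the other proteolysis list became 23 with array weights, and 7 to 17 with 1 library left out (8, 8 and 7 without control 1, 2 or 3). The 4948 changed genes in all became 7704 with TPM (7176 higher and 528 lower), 8148 with array weights, and 2548 to 5232 with 1 library left out (2548, 2700 and 2874 without control 1, 2 or 3). The members' median log2 fold change of 0.80 was 2.08 and 0.33 with pseudocounts of 0.1 and 5 and 1.58 with TPM. The direction turned for Mmp2 (-0.057 with array weights, -0.042 to 0.42 with 1 library left out), Mmp23 (-0.18 after quantile normalization, -0.023 to 0.23 with 1 library left out) and Trp53 (0.86 with TPM, 0.12 after quantile normalization, -0.29 to 0.027 with 1 library left out). Except for the stricter filter, the cause was not tested. Of the other values of named members, 287 kept sign and side of the threshold, 55 lost the call and 17 gained it.

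Cancers and controls share replicate numbers, but the deviations of same-numbered samples correlated at -0.021, -0.194 and -0.104, so the numbers do not pair them. With a replicate block on them, 6 members (6 higher and 0 lower), 7 genes of the other list (5 and 2) and 1534 genes in all (982 and 552) passed. The calls of Mmp15, Mmp28, Adamts15 and Timp4 as lower were thus lost, and Timp3 was gained as higher.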
